A study of Homo sapiens with 6 samples.

Results

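Small nucleolar RNAs (snoRNAs) and small Cajal body RNAs (scaRNAs) were followed in MCF10A, a human breast epithelial cell line that is immortal but forms no tumours. The genes were taken by name: symbols that begin with SNORD, SNORA or SCARNA and whose mean over the 6 libraries reached 1 TPM. TPM (transcript abundance per length) sums to the same total in each library. This gave 138 genes of the 552 with such names and of 27914 genes in the table. They comprised 51 of 342 SNORD, 78 of 181 SNORA and 9 of 29 SCARNA genes. The genes were thus chosen by their mean TPM over all libraries, and their levels are a description.

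Cells of the genotype α-/-;βin (3 libraries), called PI5P4K-depleted here, were set against SCRin control cells, labelled wild-type (3 libraries). Both had been given doxycycline for 3 days, so no sample here was without it. What SCR, in, α and β stand for, how many clones were used and whether replicates were separate cultures are not said in the labels. The p-values therefore reflect the spread between libraries, which may be technical. The series title names PI5P4K enzymes and the Hippo pathway. Total RNA was extracted from cell pellets and sequenced from TruSeq libraries. The sources used here do not give strand or a selection by RNA length. PIP4K2A and PIP4K2B, which encode the α and β PI5P4K enzymes, served as a check of the labels. PIP4K2A averaged 4.2 ± 0.132 TPM in PI5P4K-depleted cells and 20.6 ± 1.02 TPM in SCRin controls. PIP4K2B averaged 9.49 ± 1.83 TPM in PI5P4K-depleted cells and 21.8 ± 1.21 TPM in SCRin controls (SD, n = 3 each). All 7 basal mammary epithelial markers looked up reached a mean of 1 TPM. Of 8 markers of other cell types, 2 did (CD68 and ALB). The summed level of all 8 was 36.1 to 43.2 TPM in PI5P4K-depleted cells and 40.1 to 46.0 TPM in SCRin controls. The read depth is unknown because TPM keeps none. Between 14738 and 15058 genes were above 0 in a library.

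SnoRNAs are short nuclear RNAs that guide chemical changes on other RNAs, chiefly ribosomal RNA. C/D box snoRNAs (SNORD) direct 2′-O-methylation by fibrillarin, and H/ACA box snoRNAs (SNORA) direct pseudouridylation by dyskerin. ScaRNAs carry either or both kinds of box and guide changes on spliceosomal RNAs in Cajal bodies. In human cells most snoRNAs are not transcribed by themselves. They are cut out of introns of host genes, many of which encode ribosomal proteins or are noncoding RNAs whose main known product is the snoRNA.

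Sequences are shown for genes on which the results below turn. They were read by name from GENCODE v29 transcripts (GRCh38), which held 113 of the 138 genes. None of the 8 most abundant genes was among them. Capitals mark boxes found by a search of the given strand. Box C was searched as TGATGA in the first 20 bases and box D as CTGA in the last 12. Box H was searched as ANANNA between 35% and 65% of the length, and the ACA box near the 3′ end. The first set holds SNORA17A, which shares its host with the only gene that passed the test, and SNORA6, whose groups did not overlap.
SNORA17A: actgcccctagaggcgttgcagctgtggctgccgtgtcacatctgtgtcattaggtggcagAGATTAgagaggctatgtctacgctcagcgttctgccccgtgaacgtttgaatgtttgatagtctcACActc
SNORA6: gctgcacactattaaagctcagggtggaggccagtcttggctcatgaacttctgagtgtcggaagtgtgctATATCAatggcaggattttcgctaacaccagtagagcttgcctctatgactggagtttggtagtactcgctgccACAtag

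The second set is SNORD116, a tandem family in the SNHG14 locus on chromosome 15 that is lost in Prader-Willi syndrome. It is shown because its copies took turns between libraries.
SNORD116-4: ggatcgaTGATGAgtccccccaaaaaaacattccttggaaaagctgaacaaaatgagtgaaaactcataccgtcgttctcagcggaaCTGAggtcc
SNORD116-5: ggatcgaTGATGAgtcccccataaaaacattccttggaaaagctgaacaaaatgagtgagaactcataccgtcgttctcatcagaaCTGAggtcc
SNORD116-7: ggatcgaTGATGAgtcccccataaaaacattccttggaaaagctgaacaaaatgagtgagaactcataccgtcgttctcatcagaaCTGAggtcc
SNORD116-20: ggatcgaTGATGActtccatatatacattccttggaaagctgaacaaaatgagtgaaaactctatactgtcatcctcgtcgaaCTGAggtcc
SNORD116-22: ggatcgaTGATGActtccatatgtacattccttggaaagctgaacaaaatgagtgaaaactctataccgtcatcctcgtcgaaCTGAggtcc
SNORD116-24: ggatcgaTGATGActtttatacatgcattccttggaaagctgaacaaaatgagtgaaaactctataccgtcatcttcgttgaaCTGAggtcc
SNORD116-25: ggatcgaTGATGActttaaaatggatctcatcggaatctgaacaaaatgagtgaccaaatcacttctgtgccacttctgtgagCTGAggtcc

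The third set is SNORA5, whose 3 copies lie in TBRG4 on chromosome 7, a host that was lower in PI5P4K-depleted cells.
SNORA5A: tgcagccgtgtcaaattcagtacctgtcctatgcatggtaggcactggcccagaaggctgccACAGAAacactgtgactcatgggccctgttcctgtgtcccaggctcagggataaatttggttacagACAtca
SNORA5B: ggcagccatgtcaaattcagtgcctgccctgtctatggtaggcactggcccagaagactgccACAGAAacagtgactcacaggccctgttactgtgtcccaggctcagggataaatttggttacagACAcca
SNORA5C: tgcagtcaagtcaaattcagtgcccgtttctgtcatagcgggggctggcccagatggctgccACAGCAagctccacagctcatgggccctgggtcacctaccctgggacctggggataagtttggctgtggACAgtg

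Of the 38 SNORD sequences of the genes studied here, 76.3% held box C and 86.8% box D by this search, against 69.5% with box C and 87.6% with box D among all SNORD sequences of GENCODE. Of the 67 SNORA sequences studied here, 92.5% held an H box and 79.1% an ACA box, against 93.0% with an H box and 76.8% with an ACA box among all SNORA sequences. A match is a description of letters, not of function.

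The 138 genes held 7.54%, 6.87% and 7.54% of all TPM in PI5P4K-depleted libraries 1 to 3, and 7.98%, 7.08% and 8.17% in SCRin control libraries 1 to 3. The groups overlapped, and the means were 7.32 ± 0.386% in PI5P4K-depleted cells and 7.74 ± 0.583% in SCRin controls (SD, n = 3 each). SNORD genes held 4.53 ± 0.613% in PI5P4K-depleted cells and 5.24 ± 0.430% in SCRin controls. SNORA genes held 2.78 ± 0.256% in PI5P4K-depleted cells and 2.5 ± 0.279% in SCRin controls. SCARNA genes held 0.00951 ± 0.0051% in PI5P4K-depleted cells and 0.00629 ± 0.00375% in SCRin controls. In bulk RNA, fewer cells with a transcript and less of it per cell cannot be told apart. Without SNORD140 the share was 5.71%, 5.80% and 5.69% in PI5P4K-depleted libraries, against 5.50%, 5.08% and 5.11% in SCRin controls, so the order of the group means turned and the groups no longer overlapped. The 130 genes below the 8 most abundant held 0.370%, 0.482% and 0.474% in PI5P4K-depleted libraries. In SCRin controls they held 0.297%, 0.437% and 0.562%, so for these the groups overlapped. Shares of a fixed total are not independent of one another.

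**Figure D1:**
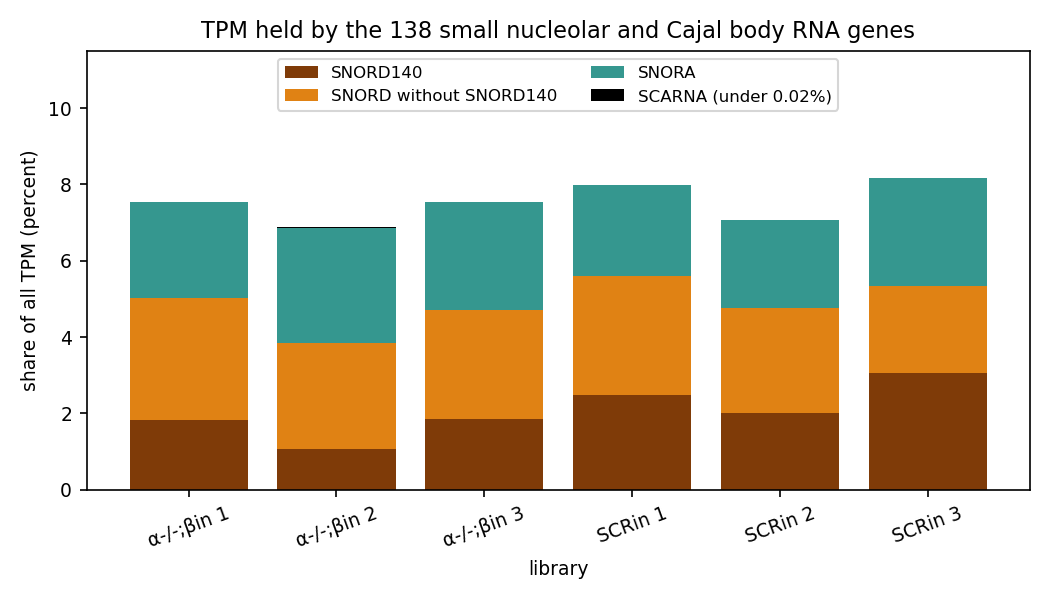
Share of all TPM (percent, vertical axis) held by the snoRNA and scaRNA genes in each library (horizontal axis), stacked by class, with SNORD140 apart from the other SNORD genes. The totals lie between 6.87% and 8.17% and overlap between the groups, while the SNORD140 block is lower in all 3 α-/-;βin libraries.

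Abundance was concentrated in a few genes. The 4 highest held 82.1% of the summed TPM of the 138 genes, the 8 highest held 94.2%, and the other 130 together held 5.81%. The 8 were SNORD140, SNORA86, SNORD141B, SNORD141A, SNORA100, SNORA104, SNORA105A and SNORA105B. Each lies in or beside an exon of a strongly expressed protein-coding gene or a pseudogene of such a gene, by the RefSeq annotation of GRCh38.p14. The deposited values come from hg19 and the counting is not stated to use strand. Where such an exon or pseudogene overlaps the snoRNA, reads from the 2 cannot be told apart, and those values are uncertain in that sense. SNORD140 alone overlapped no RefSeq gene, and the pseudogene nearest to it lay 444 bases away.

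SNORD140, a C/D box snoRNA on chromosome 22 with no host by the rule used, had the highest mean. It measured 18229.7, 10749 and 18578 TPM in PI5P4K-depleted libraries 1 to 3, and 24775, 19988 and 30547 TPM in SCRin control libraries 1 to 3. Every PI5P4K-depleted library lay below every SCRin control library. The log2 change was -0.68 on the log2(TPM + 1) scale (SE 0.25). In the main limma fit, which did not pair libraries by number, the adjusted p over all 12096 tested genes was 0.343. SNORD140 thus did not pass the threshold of 0.05 in that fit. How this depended on pairing is given in the last section. Its nearest RefSeq gene, 444 bases away, is ACTBP15, a pseudogene of ACTB (β-actin). ACTB measured 4548, 4271 and 5877 TPM in PI5P4K-depleted libraries, against 6160.03, 6213 and 8619 TPM in SCRin controls, again with no overlap. The ratio of SNORD140 to ACTB was between 2.52 and 4.02 in the 6 libraries. ACTB itself lies in the stretch of chromosome 7 described below.

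SNORA86, an H/ACA snoRNA that lies whole in an exon of the integrin gene ITGB1 on chromosome 10, averaged 15363 ± 1738 TPM in PI5P4K-depleted cells and 13313 ± 2492 TPM in SCRin controls. The libraries of the groups overlapped, and its adjusted p was 0.700 (limma). SNORA104 lies on chromosome 19 over ITGB1P1, a pseudogene of ITGB1. It measured 2994, 2479.6 and 3540.3 TPM in PI5P4K-depleted libraries, and 1965, 2177 and 1709 TPM in SCRin controls. The 3 PI5P4K-depleted libraries were the 3 highest. Its log2 change was 0.61 (SE 0.15), with an adjusted p of 0.133 by limma. ITGB1 measured 1205, 1102 and 1255 TPM in PI5P4K-depleted libraries and 999.7, 900.5 and 1036 TPM in SCRin controls, likewise without overlap, at an adjusted p of 0.292. SNORA86 stood at 11.4 to 15.6 times ITGB1 and SNORA104 at 1.65 to 2.82 times ITGB1 in the 6 libraries.

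SNORD141A on chromosome 9 and SNORD141B on chromosome 5 lie whole in EEF1A1P5 and EEF1A1P13, pseudogenes of the translation elongation factor gene EEF1A1. SNORD141A averaged 13750.3 ± 1182 TPM in PI5P4K-depleted cells and 12943 ± 1824 TPM in SCRin controls. SNORD141B averaged 14247 ± 1831 TPM in PI5P4K-depleted cells and 13118 ± 2843 TPM in SCRin controls. Summed, they stood between 4.49 and 5.17 times EEF1A1 in every library, a range narrower than that of the levels themselves, whose highest library was 1.45 times the lowest. Neither passed the test, with adjusted p-values of 0.876 for SNORD141A and 0.856 for SNORD141B (limma).

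SNORA100, in an exon of HNRNPU on chromosome 1, averaged 2857 ± 722 TPM in PI5P4K-depleted cells and 3238 ± 198 TPM in SCRin controls, with an adjusted p of 0.740 by limma. Its level was 10.2 to 14.3 times that of HNRNPU, a nuclear RNA-binding protein gene. SNORA105B lies in an exon of HSPD1 on chromosome 2, which encodes the mitochondrial chaperonin HSP60, and SNORA105A over its pseudogene HSPD1P1 on chromosome 5. SNORA105A measured 1907, 1858 and 3311 TPM in PI5P4K-depleted libraries and 1884, 0 and 1719 TPM in SCRin controls. SNORA105B measured 1918, 2052 and 0 TPM in PI5P4K-depleted libraries and 1210.3, 3766 and 1717 TPM in SCRin controls. Each copy was listed at 0 in the library where the other was highest. Their sum was 3825, 3909.7 and 3311 TPM in PI5P4K-depleted libraries, against 3095, 3766 and 3436 TPM in SCRin controls, so it varied by 1.26 times over all 6. A 0 for either copy therefore stood beside a high value of the other. The sum stood at 3.43 to 5.18 times HSPD1, in proportion a wider range than that of the sum itself. HSPD1 varied by 1.79 times over the libraries.

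**Figure D2:**
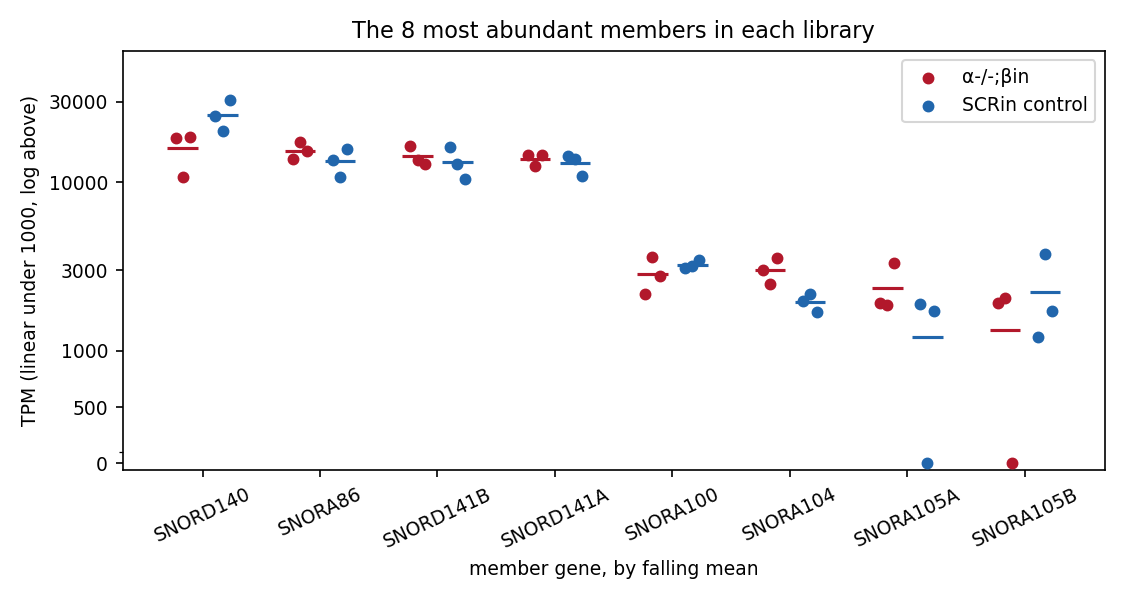
TPM of the 8 most abundant genes (horizontal axis) in each library, where the vertical axis is linear under 1000 TPM and logarithmic above. Points are libraries, α-/-;βin left of SCRin control, and bars are means. SNORD140 and SNORA104 have no overlap between groups, and SNORA105A and SNORA105B each have 1 library at 0.

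The other 130 genes had means from 1.05 to 338 TPM, with a median of 13.6 TPM, and 487 of their 780 values (62.4%) were listed at 0. Of all 138 genes, 62 were above 0 in a single library and 26 in 2. A further 14 were above 0 in 3 libraries, 12 in 4, 9 in 5 and 15 in all 6. By library, 57, 64 and 54 genes were above 0 in PI5P4K-depleted libraries 1 to 3, and 39, 57 and 68 in SCRin control libraries 1 to 3. Above 0 in PI5P4K-depleted cells alone were 38 genes, in SCRin controls alone 34, and in both 66. Of the 38, 34 were above 0 in 1 library, and of the 34, 28 were. An exact 0 was not confined to short RNA genes, but it was rare in others. Of the 138 genes 123 (89.1%) had a 0 in some library, against 161 of 11927 tested genes (1.35%) that are not short RNAs. With a mean from 100 to 1000 TPM, 1 of 1295 such genes had a 0, the ribosomal protein gene RPL21. It measured 253, 124 and 0 TPM in PI5P4K-depleted libraries, against 325, 163 and 19.8 TPM in SCRin controls. What produced the 0 values was not tested.

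**Figure D3:**
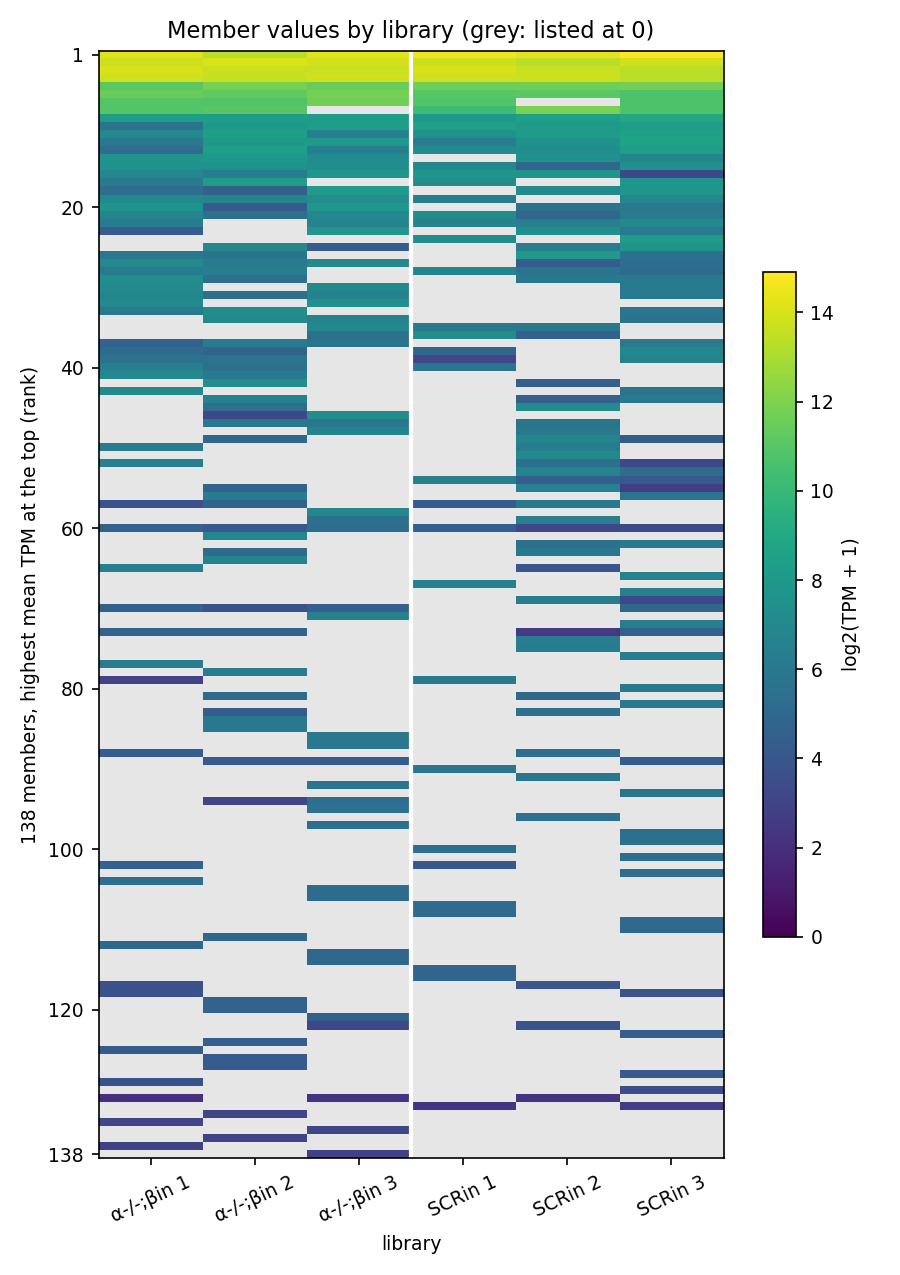
log2(TPM + 1) of the 138 genes (rows, highest mean at the top) in the 6 libraries (columns, α-/-;βin left of SCRin control), in which grey cells are values listed at 0. Below the upper rows most genes are coloured in 1 or 2 columns only, on either side.

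Low values came in steps. For genes of 121 to 146 bases under 300 TPM, 141 of 156 values above 0 (90.4%) were whole multiples, within 0.02, of a single value per library that lay between 5.81 and 6.57 TPM. For genes of 77 to 116 bases the value lay between 7.26 and 8.21 TPM, and 56 of 62 (90.3%) were whole multiples. These length limits were set after the values had been seen, and each step was the one that made most of these same values whole. With the same steps, values of other short RNA genes were whole in 1 of 4 cases in the longer class. In the shorter class 23 of 41 (56.1%) were. The steps of the classes stood in a ratio of 1.25 in each library. Among the 100 genes of these lengths with a mean under 300 TPM, the median was 14.4 steps summed over all 6 libraries, and 38 genes had at most 10. For the longer genes a single step in a single library gave a mean of 0.968 to 1.09 TPM, so 1 step decided whether a gene entered the group. SNORA69 (1.05 TPM) and SNORA21B (1.05 TPM) lay just inside on 1 step each, and SCARNA7 (1.24 TPM) lay inside on 1 library. Just outside were SCARNA10 at 0.851 TPM, SCARNA2 at 0.0960 TPM and SCARNA17 at 0.0613 TPM. Of the genes named SNORD, SNORA or SCARNA, 411 were listed at 0 in every library.

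From 5 TPM upward, the median SD between replicates was higher for these genes than for genes of like level that are not short RNAs. At 1 to 5 TPM it was 1.82 in PI5P4K-depleted cells and 0 in SCRin controls for 24 snoRNA and scaRNA genes, all with a 0 in some library, against 0.243 in PI5P4K-depleted cells and 0.277 in SCRin controls for 2350 other genes. Within the range of 20 to 100 TPM, the median SD of log2(TPM + 1) was 3.49 in PI5P4K-depleted cells and 3.38 in SCRin controls for the 41 snoRNA and scaRNA genes. The 4356 genes that are not short RNAs had 0.135 in PI5P4K-depleted cells and 0.157 in SCRin controls. From 1000 TPM upward, the median SD was 0.312 in PI5P4K-depleted cells and 0.292 in SCRin controls for the 8 snoRNA genes, against 0.114 in PI5P4K-depleted cells and 0.161 in SCRin controls for 139 other genes. The 31 other short RNA genes above 1 TPM (microRNA, small nuclear RNA and like names) had 2.90 in PI5P4K-depleted cells and 2.87 in SCRin controls. The wide spread was thus shared by other short RNA genes. Across the 138 genes, Spearman correlations between libraries were 0.327 to 0.479 within PI5P4K-depleted cells, 0.339 to 0.420 within SCRin controls and 0.334 to 0.511 between the groups. Those between groups reached at least as high as those within. Across all 27914 genes of the table the correlations were 0.95 to 0.959. All of these are across genes of the same libraries and are descriptions.

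In the limma fit on log2(TPM + 1) across all tested genes, 265 of 12096 (2.19%) passed an adjusted p of 0.05. Of these 221 (1.83%) were lower and 44 (0.364%) higher in PI5P4K-depleted cells. Of the 138 snoRNA and scaRNA genes 1 was lower and 0 were higher. Of the 138, 13 had an unadjusted p under 0.05, against 11.9% of all tested genes. The groups did not overlap for 4, against 17.1% of all tested genes. Of the 4, 2 were higher, against 5.64% of all tested genes, and 2 were lower, against 11.4%. A gene with a 0 in both groups always overlaps by this rule, so the many 0 values limited this count in advance. Among the 15 genes above 0 in all 6 libraries, 13.3% did not overlap, 1 higher and 1 lower. Their median log2 change was 0.15, beside -0.01 for all tested genes, with 72 above and 66 below 0. Leaving out any 1 of the 6 libraries lowered the calls over all genes by more than 1.5 times, to between 58 (without SCRin control replicate 3) and 173 (without SCRin control replicate 1). The median of the 138 was then between 0 and 0.715, the highest without SCRin control replicate 2. The values ran from -5.14 to 4.85, which are also the extremes among all tested genes. The median SE was 1.53, beside 0.149 for all tested genes, so changes of several fold in a typical snoRNA gene were not detectable with these replicates. A gene could enter through high values in 1 group alone, so these counts and medians describe the list and nothing more.

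**Figure D4:**
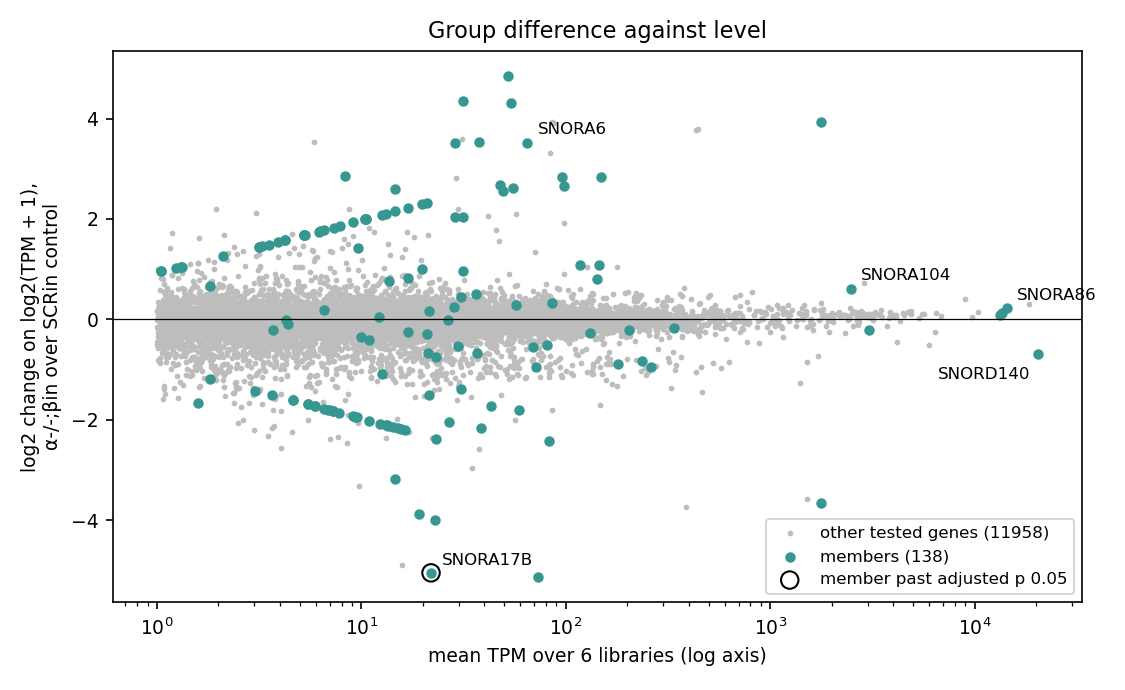
log2 change of α-/-;βin over SCRin control cells (vertical axis) against mean TPM (horizontal axis, logarithmic) for the 138 snoRNA and scaRNA genes (green) and the 11958 other tested genes (grey). The circled point, SNORA17B, passed the adjusted threshold, and the green points at low means lie on curved lines, on which genes are above 0 in 1 library.

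SNORA17B, an H/ACA snoRNA in the noncoding host SNHG7 on chromosome 9, was the gene that passed. It was listed at 0 in all 3 PI5P4K-depleted libraries, and at 94.4, 20.5 and 16.7 TPM in SCRin controls, a mean of 43.8 TPM. It thus entered the tested genes through SCRin controls alone, so its test does not support a fall. It was the only gene of the 138 that was above 0 in all libraries of one group and at 0 in all of the other. The adjusted p by limma was 0.00789. The call ended when either of 2 PI5P4K-depleted libraries was left out, with 0.0518 for number 2 and 0.0651 for number 3. Over all alternatives for the gene the adjusted p ran from 0.00289 to 0.0651. SNORA17A, in the same host, measured 23.9, 78.8 and 53.6 TPM in PI5P4K-depleted libraries and 0, 0 and 69.7 TPM in SCRin controls, at an adjusted p of 0.458. In steps, the values of both genes were mostly not whole, such as 12.44 for SNORA17A in PI5P4K-depleted library 2 and 14.91 for SNORA17B in SCRin library 1. Summed after these values had been seen, the pair measured 23.9, 78.8 and 53.6 TPM in PI5P4K-depleted libraries and 94.4, 20.5 and 86.3 TPM in SCRin controls, and the adjusted p was 0.946. The host SNHG7 averaged 48.7 ± 18.3 TPM in PI5P4K-depleted cells and 48.8 ± 10.3 TPM in SCRin controls.

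SNORA6, an H/ACA snoRNA in the ribosomal protein gene RPSA, was the other gene besides SNORA104 whose PI5P4K-depleted libraries all lay above the SCRin controls. It measured 131, 68.6 and 131 TPM in PI5P4K-depleted libraries, against 0, 19.4 and 38.3 TPM in SCRin controls. Its adjusted p was 0.329 by limma, and its fitted log2 change of 3.52 ran from 1.92 to 4.65 over the alternatives. RPSA averaged 1852 ± 36.4 TPM in PI5P4K-depleted cells and 1637 ± 73.6 TPM in SCRin controls, also without overlap, at an adjusted p of 0.445.

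Among C/D box genes, only SNORD140 had groups without overlap. The genes with the widest fitted changes were above 0 in part of 1 group. SNORD45A, in RABGGTB, was listed at 0 in all PI5P4K-depleted libraries and at 150, 0 and 287 TPM in SCRin controls. SNORD79, in the noncoding growth-arrest host GAS5, measured 126, 0 and 188 TPM in PI5P4K-depleted libraries and was listed at 0 in all SCRin controls. Their adjusted p-values by limma were 0.361 for both. These genes were chosen after their values were seen.

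Copies of SNORD116 alternated between libraries. The table names 30 SNORD116 genes, and 7 of them entered, each above 0 in 1 library only. SNORD116-24 measured 78.8 TPM in PI5P4K-depleted library 1, SNORD116-22 measured 63.4 TPM in library 2 and SNORD116-20 measured 37.0 TPM in library 3. In SCRin controls, SNORD116-5 and SNORD116-7 measured 35.6 TPM each in library 1, SNORD116-4 measured 55.5 TPM in library 2 and SNORD116-25 measured 73.9 TPM in library 3. A different copy, or pair of copies, thus carried the family in each library. The sequences of SNORD116-5 and SNORD116-7 are identical, and 4.5 steps were listed for each. SNORD116-4 differs from them by 5 edits, SNORD116-20 and SNORD116-22 by 14, SNORD116-24 by 18 and SNORD116-25 by 31. Summed, the family measured 78.8, 63.4 and 37.0 TPM in PI5P4K-depleted libraries and 71.2, 55.5 and 73.9 TPM in SCRin controls. The groups overlapped. SNHG14, the host, averaged 2.05 ± 0.0792 TPM in PI5P4K-depleted cells and 2.30 ± 0.516 TPM in SCRin controls.

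Genes above 0 in all 6 libraries numbered 15, of which 6 are among the 8 described first. SNORA40, in TAF1D, a subunit gene of an RNA polymerase I factor, measured 315, 329 and 289 TPM in PI5P4K-depleted libraries and 247, 343 and 506 TPM in SCRin controls. SNORA8, in the same host, measured 126, 355 and 81.6 TPM in PI5P4K-depleted libraries and 196, 290.5 and 361 TPM in SCRin controls. Both had groups that overlapped. SNORA70, in the ribosomal protein gene RPL10, averaged 210.1 ± 139 TPM in PI5P4K-depleted cells and 314 ± 46.8 TPM in SCRin controls. SNORA4, in the translation initiation gene EIF4A2, averaged 183 ± 23.2 TPM in PI5P4K-depleted cells and 109 ± 74.8 TPM in SCRin controls. SNORD58C, in RPL17, averaged 153 ± 158 TPM in PI5P4K-depleted cells and 207 ± 98.0 TPM in SCRin controls. SNORD12B, in the noncoding host ZFAS1, averaged 142 ± 76.9 TPM in PI5P4K-depleted cells and 144 ± 118 TPM in SCRin controls (SD, n = 3 each throughout). The adjusted p-values of these 6 by limma were 0.868 for SNORA40, 0.626 for SNORA8, 0.666 for SNORA70, 0.574 for SNORA4, 0.723 for SNORD58C and 0.880 for SNORD12B. None passed. For SNORA40 the 95% interval of the log2 change was -0.74 to 0.40, and for SNORD12B it was -2.02 to 3.61.

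ScaRNAs were scarce. SCARNA12, in PHB2, was the only one above 0 in all 6 libraries. It measured 25, 15.3 and 40 TPM in PI5P4K-depleted libraries and 20.7, 8.01 and 10.2 TPM in SCRin controls. The groups overlapped, and the adjusted p was 0.417 by limma for a log2 change of 1.00 (SE 0.42). SCARNA4 measured 0, 63.4 and 56.5 TPM in PI5P4K-depleted libraries and 0, 52.3 and 0 TPM in SCRin controls. SCARNA1 was at 65.7 TPM in SCRin control library 3 and at 0 elsewhere. The other 6 had means below 6 TPM. SCARNA2, which is known to be transcribed from its own promoter, was below the limit. The U3 genes (SNORD3A and SNORD3B-1), SNORD118 and SNORD13, also independently transcribed, are not analysed here.

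A host, taken as the most expressed gene whose span holds the snoRNA, was found for 134 of the 138 genes, with 95 different hosts. Hosts were abundant: the 89 that were tested had a median of 132 TPM, beside 19 TPM for all tested genes, and 51 of them exceeded 100 TPM. Ribosomal protein genes made up 21 hosts, which carried 30 of the genes. SNHG genes and like noncoding hosts (GAS5, ZFAS1, DANCR) made up 17, which carried 33. By position, 56 genes lay in an intron of every transcript of the host and 55 lay in an exon of some noncoding or retained transcript only. Another 14 lay whole in an exon of a coding or pseudogene transcript and held 61.7% of the summed TPM, and 9 lay partly in an exon. Host reads from such exons cannot be told apart from those of the snoRNA. Position was taken against the chosen host alone. SNORA104 and SNORA105A thus count among the 56, in ADGRE3 and CDH12, though they lie over the pseudogenes named above. They averaged 2478 and 1780 TPM, of 5239 TPM summed over the 56, and the 61.7% leaves them out.

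Of 128 genes with a tested host, 67 (52.3%) had the same sign of log2 change as the host. Pearson's r between the log2 changes was 0.01 across these 128 pairs, which share libraries and in part hosts. Of the 89 tested hosts 2 passed, both lower in PI5P4K-depleted cells, namely TBRG4 and RNF149, a share near the 2.19% of all tested genes that passed in either direction and the 1.83% that were lower. RNF149, an E3 ubiquitin ligase gene, averaged 23.4 ± 0.273 TPM in PI5P4K-depleted cells and 35.9 ± 3.20 TPM in SCRin controls (limma adjusted p 0.0288). Its snoRNA SNORD89 was listed at 0 in all PI5P4K-depleted libraries and at 0, 79.9 and 8.21 TPM in SCRin controls, at an adjusted p of 0.443.

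**Figure D5:**
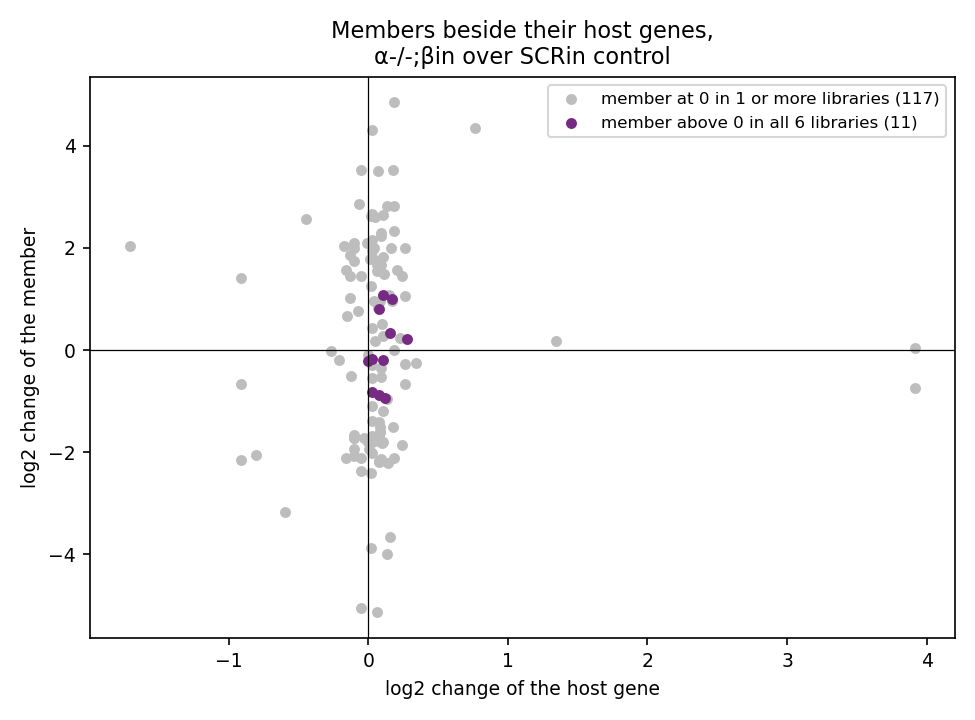
log2 change of each snoRNA or scaRNA gene (vertical axis) against that of its host (horizontal axis), α-/-;βin over SCRin control cells, for 128 pairs. The 11 genes above 0 in all 6 libraries (purple) and the 117 with a 0 (grey) scatter over a vertical range several times that of most hosts.

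Sums were taken for hosts that carried at least 4 of the genes. The 6 genes in TAF1D summed to 579.7, 811 and 521 TPM in PI5P4K-depleted libraries and 513, 715 and 972 TPM in SCRin controls, with 15 of 36 values at 0. The 4 in EIF4A2 summed to 464, 620.0 and 565 TPM in PI5P4K-depleted libraries and 385, 275 and 733 TPM in SCRin controls. In both, the groups overlapped. The 5 in GAS5 (SNORD76, SNORD79, SNORA103, SNORD47 and SNORD81) summed to 409.6, 246 and 463 TPM in PI5P4K-depleted libraries and 0, 341 and 115 TPM in SCRin controls. These groups overlapped too, and 19 of the 30 values were at 0. GAS5 itself, in those same libraries, measured 565, 673 and 503 TPM in PI5P4K-depleted cells and 503, 592 and 436 TPM in SCRin controls. All 5 were at 0 in SCRin control library 1, where GAS5 lay within the range of the other libraries. That library also had the fewest snoRNA and scaRNA genes above 0, and the part of this in the sum of 0 was not tested.

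Genes on chromosome 7 between FAM20C and CHCHD2 and on chromosome 3 between SEMA3F and RPP14 form stretches that were found earlier to be low in these PI5P4K-depleted libraries. No snoRNA or scaRNA gene above 1 TPM lay in the stretch of chromosome 3, and 4 lay in that of chromosome 7. These were SNORA5A, SNORA5B and SNORA5C in TBRG4, a mitochondrial RNA-processing gene, and SNORA9 in the noncoding host SNHG15. TBRG4 fell to 52.1, 61.2 and 58.7 TPM in PI5P4K-depleted libraries, against 98.9, 123 and 105 TPM in SCRin controls (limma adjusted p 0.00935). The call ended without SCRin control replicate 3 (adjusted p 0.0694) or PI5P4K-depleted replicate 3 (0.0656). SNHG15 measured 25.4, 32.3 and 29 TPM in PI5P4K-depleted libraries and 41.3, 59.8 and 54.0 TPM in SCRin controls, at an adjusted p of 0.0602. Both hosts had no overlap between groups.

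Their snoRNAs were irregular. SNORA5A measured 0, 0 and 43.9 TPM in PI5P4K-depleted libraries and 165, 23.2 and 0 TPM in SCRin controls. SNORA5B measured 0, 19 and 18.8 TPM in PI5P4K-depleted libraries and 0, 0 and 19.7 TPM in SCRin controls. SNORA5C measured 37.8, 25.3 and 0 TPM in PI5P4K-depleted libraries and 31.6, 0 and 125 TPM in SCRin controls. As printed above, SNORA5A and SNORA5B differ by 14 edits, and SNORA5C differs from SNORA5A by 44. Summed, the 3 copies measured 37.8, 44.4 and 62.7 TPM in PI5P4K-depleted libraries and 196, 23.2 and 144 TPM in SCRin controls. The sum's log2 change was -0.88 (SE 0.73, 95% interval -2.61 to 0.85), close to the host's -0.91, but it did not pass (adjusted p 0.730). SNORA9 measured 0, 31.7 and 0 TPM in PI5P4K-depleted libraries and 0, 110 and 19.7 TPM in SCRin controls (adjusted p 0.777). The median log2 change of the 4 genes was -1.36, beside 0.18 for the other 134. SEs of the 4 ran from 1.55 to 2.14, every 95% interval held 0, and SNORA5B was above 0 at 1.42. Whether the 4 followed their hosts was not tested.

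Proteins that make, carry or use these RNAs were taken as 7 lists from general knowledge. Of their 64 tested genes 1 was lower and 0 were higher in PI5P4K-depleted cells, against 2.19% of all tested genes that passed in either direction. The groups did not overlap for 8 of the 64, of which 2 were higher (DBR1 and UTP18) and 6 lower (NOP10, ZPR1, RBM7, MPHOSPH10, UTP3 and RRP9), against 5.64% higher and 11.4% lower among all tested genes. All 4 core C/D proteins were measured, and none passed. Fibrillarin (FBL), the methyltransferase, averaged 276 ± 23.3 TPM in PI5P4K-depleted cells and 255 ± 23.4 TPM in SCRin controls. The list's median log2 change was 0.12. Of the 4 core H/ACA proteins none passed, and the median was 0.07. Dyskerin (DKC1), the pseudouridine synthase, averaged 124 ± 7.26 TPM in PI5P4K-depleted cells and 118 ± 4.50 TPM in SCRin controls. NOP10, a small subunit of the same particle and the most expressed of the 4, averaged 389 ± 24.0 TPM in PI5P4K-depleted cells and 439 ± 4.33 TPM in SCRin controls, without overlap, at an adjusted p of 0.466 by limma.

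None of 9 assembly factors passed, of which RUVBL1, a helicase, was the most expressed, at 105 ± 17.7 TPM in PI5P4K-depleted cells and 103 ± 7.28 TPM in SCRin controls. None of 14 Cajal body and trafficking proteins passed, with a median log2 change of 0.07. XPO1, the nuclear export receptor, averaged 174 ± 36.9 TPM in PI5P4K-depleted cells and 169.6 ± 31.3 TPM in SCRin controls, and coilin (COIL), the scaffold of Cajal bodies, 28.3 ± 6.30 TPM in PI5P4K-depleted cells and 25 ± 4.64 TPM in SCRin controls. None of 14 end-processing and decay proteins passed. XRN2, an exonuclease, averaged 89.6 ± 3.39 TPM in PI5P4K-depleted cells and 87.1 ± 12 TPM in SCRin controls. DBR1, which opens the lariats from which intronic snoRNAs are released, measured 24.8, 23.4 and 25.3 TPM in PI5P4K-depleted libraries and 21.8, 20.9 and 21.3 TPM in SCRin controls. Its groups did not overlap, and its adjusted p was 0.458. RBM7, a subunit of the nuclear exosome targeting complex, measured 30.0, 25.6 and 29.6 TPM in PI5P4K-depleted libraries and 31.7, 30.4 and 31.3 TPM in SCRin controls, lower without overlap at an adjusted p of 0.691 (limma). Neither of the 2 telomerase-related genes tested, TINF2 and TEP1, passed.

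Of 17 proteins of the U3 particle and the small-subunit processome, RRP9 fell and 16 did not pass. RRP9 binds the U3 snoRNA. It measured 18.5, 25.5 and 25.8 TPM in PI5P4K-depleted libraries, against 40, 44.6 and 37.7 TPM in SCRin controls, with a log2 change of -0.79 (SE 0.15) and an adjusted p of 0.0492 by limma. The call ended in 8 of 15 alternatives, among them each of the 6 in which a library was left out, where the adjusted p was between 0.0858 and 0.174. RRP9 lies in the stretch of chromosome 3 named above. DCAF13, the most expressed of the list, averaged 175 ± 13.3 TPM in PI5P4K-depleted cells and 162 ± 14.6 TPM in SCRin controls. The median log2 change of the 17 was 0.04.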

How the data were processed

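RNA was measured in 6 MCF10A libraries, 3 per group. The authors deposited TPM per gene symbol, on hg19 as the submitters' processing notes state. The sources used here do not give the aligner, quantifier, annotation, strand setting or filters. Control columns were matched by name and number, and the columns headed as the experiment were assigned to α-/-;βin (PI5P4K-depleted) by replicate number. The 12096 genes whose mean TPM reached 1 were compared on log2(TPM + 1) with limma 3.58.1 in R 4.3.3 (empirical Bayes, mean-variance trend, two-sided, Benjamini-Hochberg over all genes, threshold 0.05). A log2 change on this scale understates that of low genes. On simulated data for this comparison (12096 genes), 66% of genes changed by 1 and 87% of those changed by 2 on the log2 scale were called. The changed genes were drawn at random from all tested genes, whose median SE was 0.149, beside 1.53 for the 138. These rates therefore do not apply to the 138 genes. Hosts, neighbours and chromosomes came from RefSeq (GRCh38.p14) and GENCODE v29, by name, and no coordinates were converted. Named genes are the 8 highest, those past the threshold, those without overlap, those in the low stretches and those near the limit among the 138, and the most expressed or called gene of each protein list. Others were chosen after their values were seen. The genes and lists were chosen with earlier results of these data known.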

Additional observations from a re-analysis of the deposited data

How the results depend on the processing

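SNORA17B was the only gene of the 138 called with a pseudocount of 0.1 or 5, no filter, a minimum mean of 5 TPM, no trend, rescaling without short RNA genes, or median-of-ratios scaling. Leaving out a library gave 0 to 3 lower and 0 to 3 higher calls among the 138 genes, 58 to 173 calls over all genes, and a median log2 change of 0 to 0.715, the last without SCRin control replicate 2. Summing copies, an alternative added after seeing the data, left 0 called lower. The numbers shared by the groups were not taken as pairs in the main fit. Same-numbered deviations correlated at 0.246, 0.269 and -0.015, and different-numbered ones at -0.293 to 0.0526. These values do not settle whether the libraries were paired. With replicate block, 881 genes and 2 of the 138 passed, the second being SNORD140 (adjusted p 0.0133). The difference in TPM share, PI5P4K-depleted minus SCRin control, was -0.424 percentage points, and 0.501 without SNORD140. For the 130 genes below the 8 highest it was 0.00988 percentage points. The median within-group SD of 2.49 was 4.36 with a pseudocount of 0.1. Of 516 further results for single genes, 494 stayed on their side of the threshold, 15 lost and 7 gained a call, and none changed sign with a call. The cause of these shifts was not tested. The unknown depth, and the steps of several TPM at low levels, limit how the values of the 138 genes can be read. What 1 step stands for was not tested. Of the 10 with means from 100 to 1000 TPM, 30% still had a 0 in some library. Their median SD was 1.10 in PI5P4K-depleted cells and 1.27 in SCRin controls.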
